A study of Mus musculus with 4 samples.

Results

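The levels of 9 pigment genes of the mouse were followed across the cells of retina and choroid: Tyr, Tyrp1, Dct, Pmel, Mlana, Slc45a2, Oca2, Gpr143 and Mitf. They were chosen as genes of melanin synthesis and its control, their values were taken from the table of unique molecular identifiers (UMIs, each standing for 1 captured RNA molecule) per gene and cell, and all 9 of the 9 were found among its 24783 genes. UMIs were summed over the cells of each class in each library, above all over cells resembling retinal pigment epithelium (RPE-like) and cells resembling melanocytes (melanocyte-like).

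Retina and choroid-sclera of wild-type mice were dissociated with papain, retinal rods were depleted through CD73, the suspensions were mixed, and cells were captured on the 10x Genomics droplet platform. The aged CNV library came from mice over 18 months old, 3 days after laser burns that induce choroidal neovascularization (CNV), and the aged control library from mice over 18 months old without laser. The young CNV library came from mice of 6 to 8 weeks, 3 days after laser, and the young control library from mice of 6 to 8 weeks without laser. Each group was 1 library, and the sources used here do not give strain, sex or how many animals were pooled, so no test between groups was possible: every interval below is a 95% interval that covers counting error only, and differences between animals or dissections are not part of it. The labels do not separate cells near laser burns from cells far from them.

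Melanin is made in melanosomes, and in the eye by both of these: the RPE, a neural epithelium behind the photoreceptors, and the melanocytes of choroid, iris and ciliary body, which come from the neural crest. Tyrosinase (Tyr) catalyses the first and rate-limiting steps from tyrosine, and dopachrome tautomerase (Dct) and tyrosinase-related protein 1 (Tyrp1) act on later intermediates of the eumelanin branch. Pmel forms the fibrils on which melanin is laid down, Mlana is a small melanosomal protein that binds Pmel, Slc45a2 and Oca2 are melanosomal membrane transport proteins that keep the lumen fit for tyrosinase, Gpr143 is a receptor of the melanosome membrane whose loss causes ocular albinism, and Mitf is the transcription factor that drives most of these genes. RPE melanin is laid down mainly before and soon after birth, and adult RPE cells are thought to make little more.

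Upstream sequence of the 3 enzyme genes is shown because Mitf and its relatives are known to bind CATGTG. RefSeq windows of 250 bases before a start site (GRCm38.p6) were present for 5 of the 9 genes, and CATGTG was searched on both strands, where it reads CACATG on the other one. The 30 bases around each match read as follows, 5′ to 3′ on the gene's strand, with CATGTG or CACATG in capitals together with the T before or the A after it where the longer form TCATGTG is present.
Tyr, chr7:87493516-87493545, minus strand: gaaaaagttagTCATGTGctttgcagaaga
Tyrp1, chr4:80834155-80834184, plus strand: tggggagggagTCATGTGctgcctagtagt
Dct distal, chr14:118052461-118052490, minus strand: gcttggctgggaCACATGAgcccaataaag
Dct proximal, chr14:118052379-118052408, minus strand: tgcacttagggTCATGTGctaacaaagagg
Oca2, chr7:56239561-56239590, plus strand: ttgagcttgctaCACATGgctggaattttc

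The first base of the match lay 21 bases before the RefSeq start site in Tyr, 46 in Tyrp1, 232 and 150 in Dct, and 186 in Oca2. In the GENCODE vM21 annotation Tyrp1 starts at 80834123, so its match lies inside the span given there. Tyr, Tyrp1 and Dct held the longer form TCATGTG, which was present in 3.25% of all 32851 windows of the same length, whereas the shorter CATGTG of Oca2 was present in 12.3% of them. None of the 3 Mitf windows held either. The whole windows of Tyr and Dct show how the matches are placed, next to the start in Tyr and farther from it in Dct.
Tyr, chr7:87493513-87493762, minus strand: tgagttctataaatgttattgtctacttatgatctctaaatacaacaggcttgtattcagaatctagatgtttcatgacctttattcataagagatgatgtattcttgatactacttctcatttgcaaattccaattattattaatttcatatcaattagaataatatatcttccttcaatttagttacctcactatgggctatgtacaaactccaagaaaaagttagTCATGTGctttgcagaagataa
Dct, chr14:118052247-118052496, minus strand: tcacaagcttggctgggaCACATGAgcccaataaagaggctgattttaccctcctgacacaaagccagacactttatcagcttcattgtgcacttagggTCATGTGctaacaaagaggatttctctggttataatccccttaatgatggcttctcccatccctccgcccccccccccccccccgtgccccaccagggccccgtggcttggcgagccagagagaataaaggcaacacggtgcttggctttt
These matches describe the letters of the windows and show no binding.

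The 4 libraries held 36701 cells, with medians of 6875 UMIs per cell in aged CNV, 6427.5 in aged control, 7223 in young CNV and 2593 in young control, and 35590 cells remained after removal of predicted doublets. Pairs of libraries shared 14 to 29 cell barcodes, at most 0.359% of the smaller library. Cells were clustered without the 9 genes and named from markers that leave them out. This gave 2147 RPE-like cells in 7 clusters and 356 melanocyte-like cells in 2 clusters. In melanocyte-like cells the 8 melanocyte markers (Sox10, Kit, Ednrb, Mc1r, Slc24a5, Pax3, Mcoln3 and Gpnmb) summed to between 4771 and 7479 CPM. CPM is the counts-per-million share of a class's UMIs. In RPE-like cells these markers summed to 444 to 706 CPM. There Pax3 was at 0 in all 4 libraries and Mc1r in 3 of them. In melanocyte-like cells Mc1r was at 0 too in both aged libraries. Slc24a5 had 226 to 335 CPM in RPE-like cells, Gpnmb 118 to 409 and Sox10 42.8 to 76.9, while Kit, Ednrb and Mcoln3 had 15.2 CPM or less. In RPE-like cells the 8 RPE markers (Rpe65, Lrat, Rgr, Rrh, Rdh5, Best1, Ttr and Ermn) summed to between 69922 and 110981 CPM. Most of this was Ttr, with 47427 to 82704 CPM. Best1 was nearly absent, with at most 3 UMIs in a library, and each of the other markers had 96.6 CPM or more in every library. Different clusters held most RPE-like cells of each library, so the comparisons below set mostly different clusters against each other: one led by A2m held 230 of the 312 aged CNV cells, one led by Serpine3 held 308 of the 334 young CNV cells, one led by Rdh5 held 414 of the 477 young control cells, and a pair of clusters led by Ermn and Itgb8 held 502 and 478 of the 1024 aged control cells. Melanocyte-like cells made up 0.375% of aged CNV cells, 0.187% of aged control cells, 1.69% of young CNV cells and 1.23% of young control cells, and the 12 melanocyte-like cells of the aged control library were below the minimum of 20 cells for a comparison between libraries.

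All 9 genes were at their highest in melanocyte-like cells when the 4 libraries were pooled. Dct reached 14751 CPM (95% Poisson interval 14587 to 14916), Pmel 11156 CPM, Tyrp1 7506 CPM and Mlana 5634 CPM. Tyr stood at 1399 CPM, Oca2 at 1258, Slc45a2 at 909, Mitf at 814 and Gpr143 at 255 CPM. These values carry no correction for gene length or capture, so each gene is compared between classes and not with the other genes. In RPE-like cells Dct had 829, Tyr 209, Oca2 158 and Mitf 134 CPM, while Tyrp1 had 83.04, Gpr143 78.3, Pmel 70.8, Mlana 55.9 and Slc45a2 12.1 CPM. Ciliary-epithelium-like cells were few, with 6 in aged CNV, 1 in aged control, 46 in young CNV and 22 in young control. Dct had 1621 CPM in those of young CNV and 2158 CPM in those of young control, against 1390 and 1079 CPM in RPE-like cells of the same libraries, but 13.5 CPM in those of aged CNV, against 441 CPM in RPE-like cells. Much of the Dct and Pmel of the young control cells was held by few of them, whereas 72.7% of them held a Tyrp1 UMI. In young control the 5% of the 22 ciliary-epithelium-like cells with the most held 45.7% of their Dct and 71.4% of their Pmel UMIs. That number of cells was rounded up to whole cells, so it is more than 5% of so few. After thinning each cell to 1000 UMIs, 30.6% of ciliary-epithelium-like and 46.9% of RPE-like cells of all libraries held a Dct UMI. For Tyrp1 these shares were 33.3% and 6.65%, for Mlana 22.2% and 4.83%, and for Pmel 11.1% and 3.32%. With the libraries pooled, ciliary-epithelium-like cells had 1624 CPM of Dct, 484 of Tyrp1, 385 of Mlana and 270 of Pmel, above RPE-like cells. Tyr, Oca2, Gpr143, Slc45a2 and Mitf were lower in them than in RPE-like cells.

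**Figure D1:**
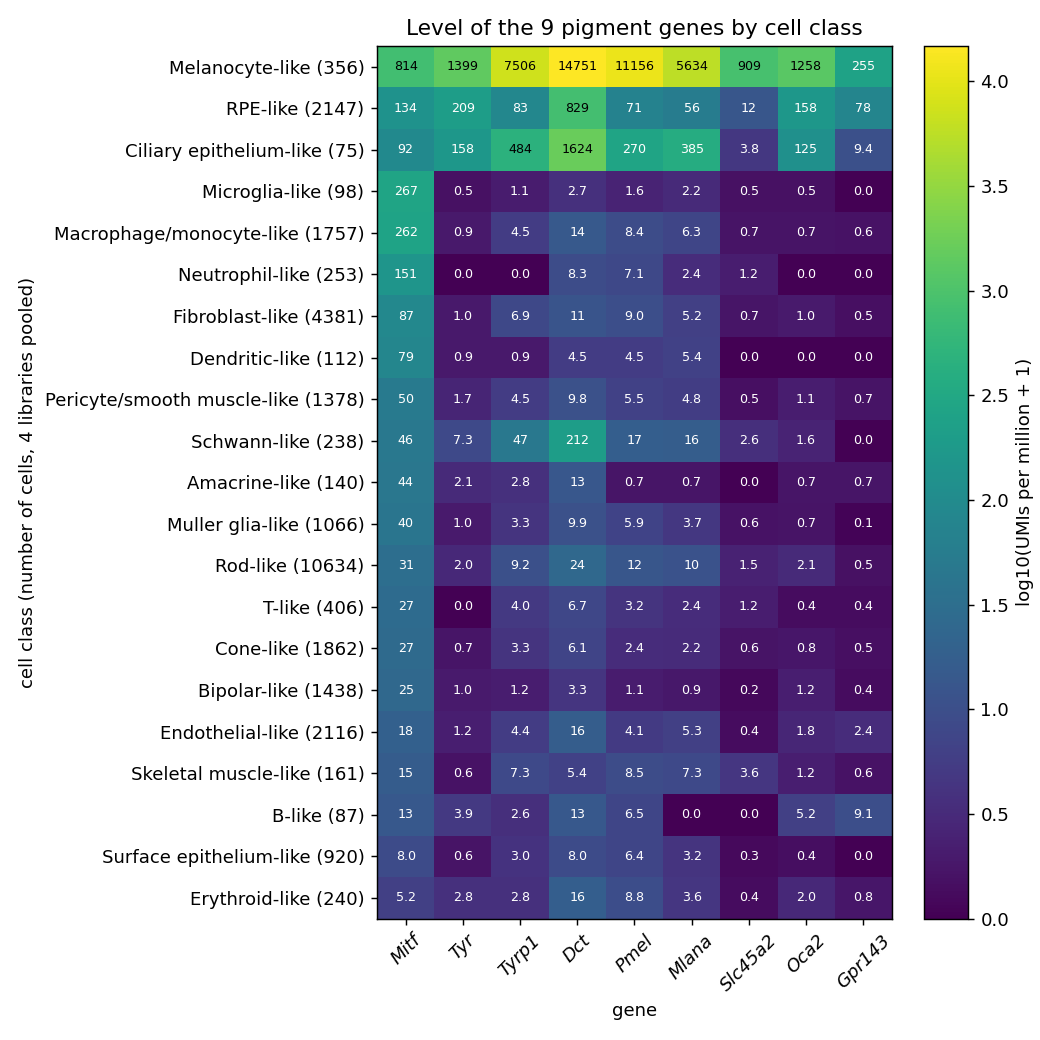
CPM of each gene (columns) in each named class of at least 50 cells (rows, with the number of cells in parentheses), 4 libraries pooled; colour is log10(CPM + 1) and the number in each field is the CPM. Mitf, unlike the other genes, also reaches 267 CPM in microglia-like and 262 CPM in macrophage/monocyte-like cells.

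Outside these classes the 8 genes other than Mitf were low, and how much of that level was free RNA in the droplets was not tested. Summed over the other named classes, Schwann-like cells left out, Pmel had 2.79 CPM in aged CNV, 1.64 in aged control, 8.56 in young CNV and 12.4 in young control, and Tyrp1 had 0.997, 0.777, 6.47 and 9.57 CPM in the same order. Both were higher in the young libraries, which also held the larger shares of melanocyte-like cells. Dct in Schwann-like cells was an exception at 333 CPM in young CNV, but only 8.40% of those 119 cells held a UMI of it, and in young control Schwann-like cells it had 14.0 CPM. Tyrp1 had 206 CPM in the 32 Schwann-like cells of aged CNV, with all 48 UMIs in 1 cell; with Schwann-like cells counted in, the level of Tyrp1 in other classes was 1.96 CPM in aged CNV, 0.774 in aged control, 6.87 in young CNV and 9.50 in young control.

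Mitf did not follow the other 8. In macrophage/monocyte-like cells it had 327 CPM in aged CNV, 320 in aged control, 235 in young CNV and 204 in young control, above the RPE-like level of the same library each time. The 44 mast-like cells, a class known to depend on Mitf, held 797 CPM (95% interval 674 to 936), close to the 814 CPM (776 to 854) of melanocyte-like cells with overlapping intervals. RPE-like cells held only 4.32% of all Mitf UMIs of the aged CNV library, 28.5% of those of aged control, 2.23% of those of young CNV and 11.2% of those of young control. After thinning each cell to 1000 UMIs, the share of cells with a Mitf UMI was 55.0% in mast-like and 50.7% in melanocyte-like cells, 13.1% in RPE-like cells and 1.52% in endothelial-like cells.

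Within each library, melanocyte-like cells were set against RPE-like cells. In aged CNV 8 of the 9 genes were at least 2-fold higher in melanocyte-like cells, where 27.7% of all genes with at least 20 UMIs were. All 9 were in aged control (27.6% of genes), where the 12 melanocyte-like cells are below the minimum used between libraries, in young CNV (36.6%) and in young control (32.3%). The median log2 ratio of the 9 genes was 4.18 in aged CNV, against 0.10 for all genes, and 3.77 in young control, against 0.41.

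The ratios of the aged libraries rest on few cells. After thinning to 1000 UMIs per cell, Oca2 was 0.745-fold in aged control, on 7 melanocyte-like cells, and Gpr143 had 0 UMIs in the 21 melanocyte-like cells of aged CNV. In the shallower of the 2 melanocyte-like clusters alone, Tyr was 0.686-fold in aged control (7 cells), Oca2 was 0.810-fold in aged CNV (13 cells), and Gpr143 had 0 UMIs in both. Mitf was 1.63-fold in aged control there. This was not confined to the aged libraries: in young CNV, on 99 cells of that cluster, Oca2 was 1.80-fold and Gpr143 1.42-fold, both below 2-fold. Without melanocyte-like cells that meet the RPE rule on their own UMIs, Gpr143 was 2.10-fold higher in aged CNV. All 9 genes then passed 2-fold there, and the share of all genes was not counted in that setting.

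The ratio differed widely between genes and between libraries. Pmel was 1031-fold higher in melanocyte-like than RPE-like cells in aged CNV (interval 587 to 2005, on 12 UMIs in RPE-like cells), 579-fold in aged control (419 to 813), 176-fold in young CNV (151 to 207) and 55.5-fold in young control (51.6 to 59.7). Its ratio was thus higher in each aged library than in either young one. In aged CNV the 5% of melanocyte-like cells with the most, rounded up to whole cells, held 64.0% of the Pmel UMIs of their class. Mlana was 177-fold higher in aged CNV, 252-fold in aged control, 45.0-fold in young CNV and 62.4-fold in young control. Mlana had 6845 CPM in melanocyte-like and 110 CPM in RPE-like cells of young control, where the interval of its ratio was 56.6 to 69.0, and Slc45a2 had 854 and 12.9 CPM, a 66.2-fold difference (49.8 to 89.6). Tyr had 1436 CPM in melanocyte-like and 243 CPM in RPE-like cells, a 5.92-fold difference (5.42 to 6.46). Gpr143 had the smallest ratio in 3 of the 4 libraries, at 1.71-fold (0.828 to 3.18) in aged CNV, 2.63-fold (2.22 to 3.11) in young CNV and 3.02-fold (2.51 to 3.62) in young control. In aged control its ratio was 4.02-fold (1.99 to 7.26), and that of Oca2 was lower at 2.42-fold (1.40 to 3.89). RPE-like cells held 73.1% of all Gpr143 UMIs of the aged CNV library, 88.7% of those of aged control, 38.2% of those of young CNV and 58.6% of those of young control.

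**Figure D2:**
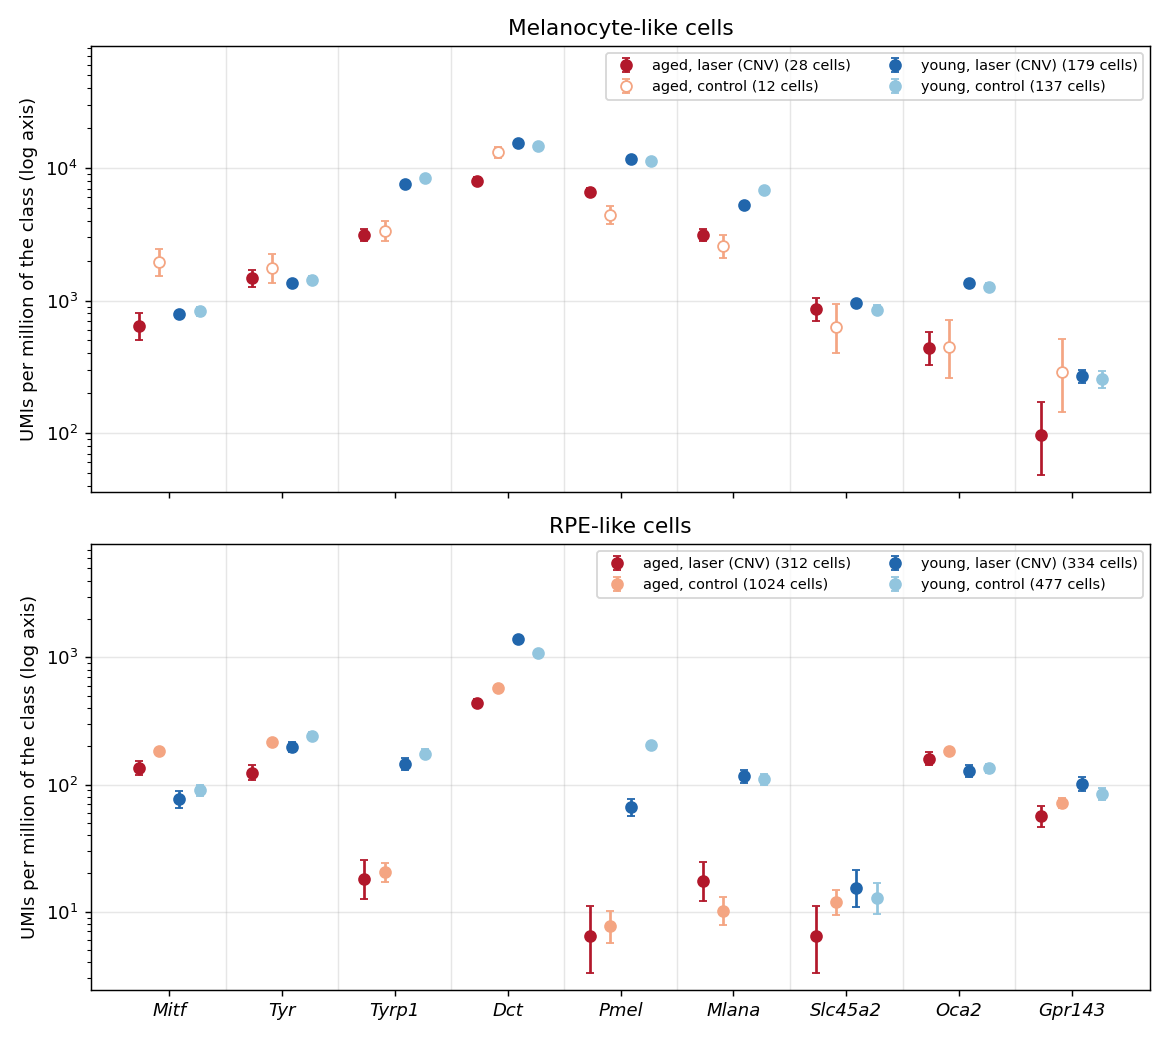
CPM (log axis) of each gene in melanocyte-like cells (top) and RPE-like cells (bottom), 1 point per library with its 95% Poisson interval, which covers counting error only; the open symbol marks the 12 melanocyte-like cells of aged control. In RPE-like cells Tyrp1, Pmel and Mlana lie at 20.4 CPM or less in both aged libraries and at 66.5 CPM or more in both young ones, while Mitf lies higher in the aged libraries.

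Age without laser was compared in 1024 aged control and 477 young control RPE-like cells. Pmel, Mlana and Tyrp1 were far lower in aged control, Dct was lower by less, Tyr and Gpr143 differed little, and Mitf and Oca2 were higher. Of the 9 genes, 3 were at least 2-fold lower, where 3.21% of 11807 genes were, and 1 was at least 2-fold higher, where 11.3% were. Their median log2 ratio was -0.24, against 0.30 for all genes.

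Pmel had 7.69 CPM in aged control (interval 5.69 to 10.2) and 203 CPM in young control (189 to 217), 26.4-fold lower in aged control (19.8 to 35.9). Mlana had 10.2 CPM in aged control and 110 CPM in young control, 10.7-fold lower (8.26 to 14.2). Tyrp1 had 20.4 CPM in aged control and 175 CPM in young control, 8.59-fold lower (7.11 to 10.4). The difference in Tyrp1 was spread over cells: 8.40% of aged control and 50.3% of young control RPE-like cells held a UMI of it, and after thinning to 1000 UMIs per cell 2.24% (exact binomial interval 1.41 to 3.38) and 15.5% (12.2 to 19.2) did. In endothelial-like cells, which should lack the gene, 0.725% of aged control and 3.63% of young control cells held a Tyrp1 UMI, at medians of 5657.5 and 7740.0 UMIs per cell against 4842 and 6699 in RPE-like cells. Of the other enzymes, Dct had 573 CPM in aged control and 1079 CPM in young control, 1.88-fold lower (1.80 to 1.97). Tyr had 217 CPM in aged control and 243 CPM in young control, 1.12-fold lower (1.03 to 1.21).

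Among the transport proteins, Oca2 had 184 CPM in aged control and 134 CPM in young control, 1.37-fold higher (1.24 to 1.52). Slc45a2 had 11.9 CPM in aged control and 12.9 CPM in young control, with an interval of the ratio that spans equality (0.642 to 1.34). Gpr143 had 71.8 CPM in aged control and 84.6 CPM in young control, 1.18-fold lower (1.02 to 1.36). Mitf, the regulator, had 183 CPM in aged control and 90.0 CPM in young control, 2.04-fold higher (1.81 to 2.30). With edgeR's TMM scaling, which moved the median log2 ratio of all genes by -0.25, Mitf was at 0.78 and Oca2 at 0.21 on the log2 scale, so Mitf was then below 2-fold. Dct was then at -1.16, beyond 2-fold. With TMM 4 of the 9 genes were at least 2-fold lower and 0 at least 2-fold higher, as they were with median-of-ratios scaling. The share of all genes at 2-fold was not counted with either scaling, so the shares given above do not apply to these counts. Mitf was also higher with age in fibroblast-like cells, at 101 CPM in aged control and 61.6 CPM in young control.

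The same direction was seen in the lasered eyes, whose libraries are not those of the control comparison. Of the 9 genes, 5 were at least 2-fold lower in aged CNV than in young CNV RPE-like cells, where 4.3% of 10117 genes were, and 0 were at least 2-fold higher, where 12.8% were. Pmel had 6.40 CPM in aged CNV and 66.5 CPM in young CNV, 10.4-fold lower (5.79 to 20.5), Tyrp1 had 18.1 CPM in aged CNV and 145 CPM in young CNV, 7.98-fold lower (5.60 to 11.7), and Mlana had 17.6 CPM in aged CNV and 117 CPM in young CNV, 6.63-fold lower (4.62 to 9.83). Dct had 441 CPM in aged CNV and 1390 CPM in young CNV, 3.15-fold lower (2.92 to 3.40). Slc45a2, with only 12 UMIs in aged CNV, had 6.40 CPM there and 15.4 CPM in young CNV, 2.40-fold lower (1.23 to 5.06). Tyr had 124 CPM in aged CNV and 196 CPM in young CNV, 1.58-fold lower (1.35 to 1.85). Gpr143 had 56.6 CPM in aged CNV and 102 CPM in young CNV, 1.80-fold lower (1.43 to 2.28). Mitf had 136 CPM in aged CNV and 76.5 CPM in young CNV, 1.77-fold higher (1.46 to 2.15). Oca2 had 160 CPM in aged CNV and 128 CPM in young CNV, 1.25-fold higher (1.06 to 1.47), a direction that turned with TMM scaling (log2 ratio -0.02). With TMM scaling 7 of the 9 genes were at least 2-fold lower, Tyr and Gpr143 (log2 ratio -1.19) among them, and with median-of-ratios scaling 6 were. These scalings moved the median log2 ratio of all genes by -0.35 and -0.32. The share of all genes at 2-fold was not counted with them, so the shares given above do not apply to these counts.

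**Figure D3:**
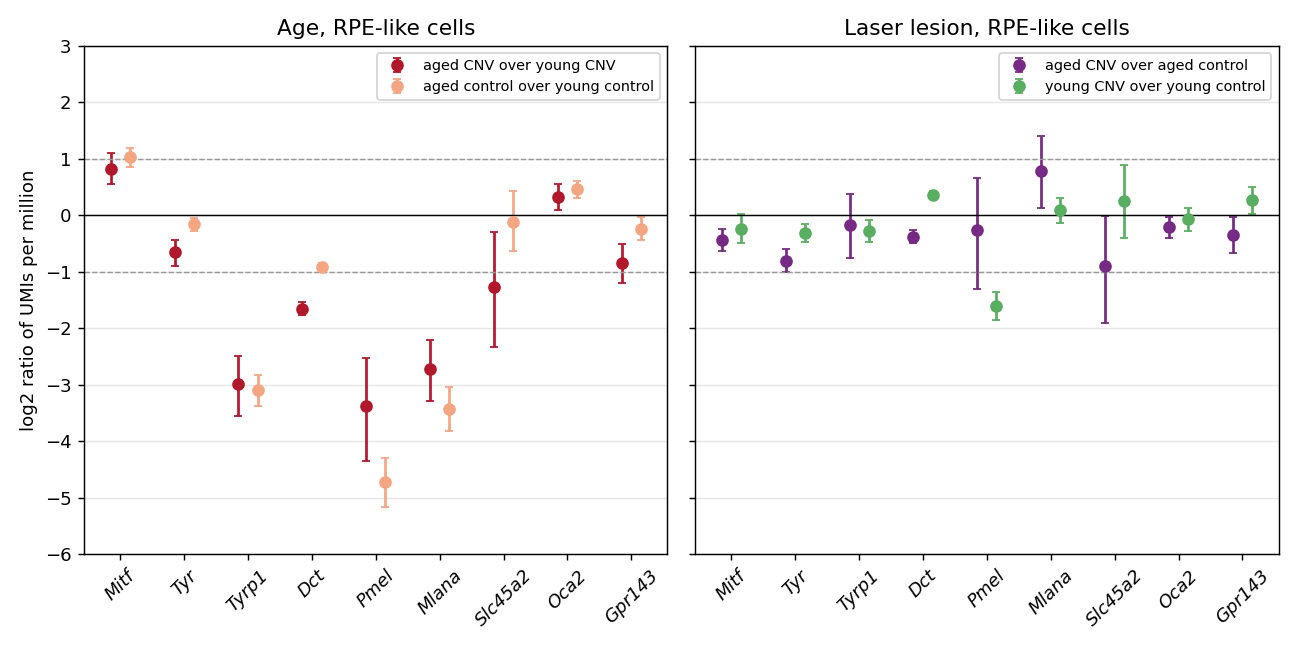
log2 ratio of CPM in RPE-like cells for each gene, for age (left: aged CNV over young CNV and aged control over young control) and for laser (right: aged CNV over aged control and young CNV over young control), with 95% intervals that cover counting error only; dashed lines mark 2-fold. Pmel, Mlana and Tyrp1 lie between -4.72 and -2.73 in both age comparisons, and in the laser comparisons Pmel in young eyes is the one value beyond a dashed line.

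Several other measures differed with age in the same libraries, and their part in these differences was not tested. Summed over the other named classes without Schwann-like cells, Pmel had at most 12.4 CPM and Tyrp1 9.57 CPM, both in young control. In single other named classes of at least 50 cells, the highest young control values were 22.8 CPM of Pmel and 18.5 of Tyrp1 (fibroblast-like). The highest for Mlana was 13.2 CPM (rod-like). In young CNV Schwann-like cells had the highest values, at 24.9 CPM of Pmel, 34.1 of Tyrp1 and 24.9 of Mlana. Rod markers, 6 genes, summed to 69.4 CPM in aged CNV, 128 in aged control, 454 in young CNV and 800 in young control RPE-like cells. The 8 melanocyte markers summed to 706 CPM in aged CNV, 444 in aged control, 558 in young CNV and 558 in young control RPE-like cells. Where only RPE-like cells without a UMI of Sox10, Kit, Mc1r, Pax3 and Mcoln3 were kept, the log2 ratio of aged control over young control was -4.61 for Pmel, -3.62 for Mlana and -3.12 for Tyrp1. That kept 622 of 1024 aged control and 304 of 477 young control cells. RPE-like cells of these libraries held 490 and 207 UMIs of Sox10, 97 and 54 of Kit and 0 of Pax3. The filter thus acted mainly through Sox10 and cannot show whether melanocyte RNA was present.

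Pmel was spread over young RPE-like cells more unevenly than Tyrp1 was. In young control 18.9% of cells held a Pmel UMI, against 3.82% of endothelial-like cells, and the 5% of cells with the most held 87.5% of all Pmel UMIs of the class, against 34.7% for Tyrp1. Cells with at least 2000 CPM of Pmel, a threshold chosen after the values were seen, numbered 0 of 312 in aged CNV, 1 of 1024 in aged control, 7 of 334 in young CNV and 13 of 477 in young control. The 13 young control cells held 74.4% of the Pmel UMIs of their class, with a median of 38 UMIs each. Without such cells Pmel had 6.40 CPM in aged CNV, 6.44 in aged control, 40.2 in young CNV and 53.5 in young control, so its log2 ratio of aged control over young control was -3.05 without them.

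The young control cells rich in Pmel carried RPE RNA. The 13 young control cells had 70159 CPM of Ttr, a transthyretin RNA abundant in RPE, against 72634 CPM in the other 464 young control RPE-like cells. Rpe65, the isomerohydrolase of the visual cycle, was lower in them, at 2382 CPM against 6087 CPM in the others. A UMI of Rpe65 was held by 9 of the 13 cells and 457 of the 464. The 13 cells also had less Rgr, at 4385 CPM against 12625 CPM in the others. They also held more Dct (5797 CPM against 926), Tyrp1 (773 against 156), Mlana (631 against 92.7) and of the melanocyte markers more Gpnmb, a melanosomal relative of Pmel (970 against 134), and Slc24a5, a melanosomal exchanger (694 against 317, with 88 UMIs in 12 of the 13 cells). Gpr143 had 63.1 CPM in them and 85.3 in the others, and Mitf 86.8 and 90.1 CPM. Of the other melanocyte markers, Mc1r, Pax3 and Mcoln3 were at 0 in the 13 cells. Sox10 had 39.4 CPM in them and 51.7 CPM in the others (5 UMIs in 2 of the 13 cells), Kit 23.7 and 13.1 CPM (3 UMIs in 3 cells) and Ednrb 15.8 and 3.84 CPM (2 UMIs in 2 cells). The 7 young CNV cells were shallower, with a median of 1765 UMIs against 4715 in the other 327. Of the 7, 5 held a Ttr UMI and 4 an Rpe65 UMI, against 321 and 311 of the others. Since all these cells were picked by Pmel, their values are a description.

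**Figure D4:**
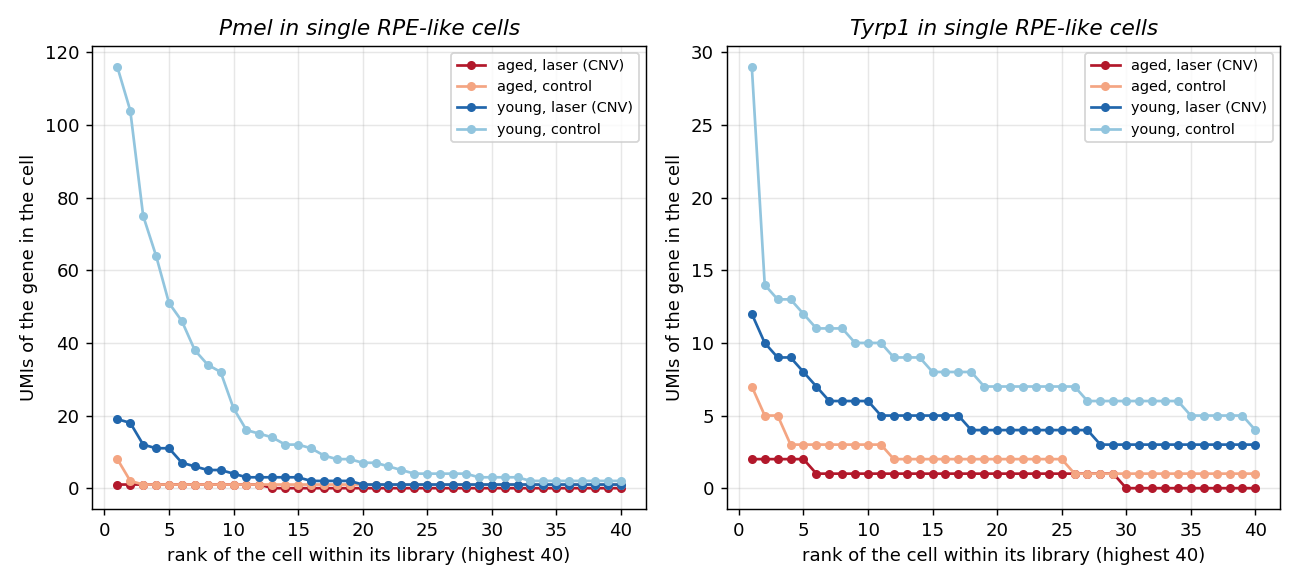
UMIs of Pmel (left) and Tyrp1 (right) in the 40 single RPE-like cells with the most of each gene, ranked within each library. Pmel reaches 116 UMIs in 1 young control cell and drops steeply with rank, Tyrp1 drops more evenly, and both aged libraries stay at 8 UMIs or fewer for either gene.

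Laser in young eyes was compared in 334 young CNV and 477 young control RPE-like cells. Of the 9 genes, 0 were at least 2-fold higher, where 3.02% of 10682 genes were, and 1 was at least 2-fold lower, where 3.01% were; their median log2 ratio was -0.07, against -0.06 for all genes. That 1 gene was Pmel, with 66.5 CPM in young CNV and 203 CPM in young control, 3.05-fold lower (2.57 to 3.64). Its share of cells with a UMI was 17.4% in young CNV and 18.9% in young control, and without the cells of at least 2000 CPM the log2 ratio was -0.41 in place of -1.61. Dct had 1390 CPM in young CNV and 1079 CPM in young control, 1.29-fold higher (1.23 to 1.35), and Gpr143 had 102 and 84.6 CPM, 1.20-fold higher (1.02 to 1.42). Tyr had 196 CPM in young CNV and 243 CPM in young control, 1.24-fold lower (1.11 to 1.38), and Tyrp1 145 and 175 CPM, 1.21-fold lower (1.06 to 1.38). After thinning to 1000 UMIs per cell the direction of Tyr turned, with a log2 ratio of 0.13. The intervals of Mlana, Slc45a2, Oca2 and Mitf spanned equality, that of Slc45a2 from 0.761 to 1.85. The 8 macrophage/monocyte markers summed to 635 CPM in young CNV and 174 CPM in young control RPE-like cells, led by Lyz2 at 436 and 35.7 CPM, and their part in these differences was not tested.

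Laser in aged eyes was compared in 312 aged CNV and 1024 aged control RPE-like cells, and 0 of the 9 genes reached 2-fold, where 3.8% of 11508 genes were at least 2-fold higher and 3.78% at least 2-fold lower. Their median log2 ratio was -0.34, against -0.03 for all genes, and 6 of the 9 had intervals below equality, where 13.4% of all genes did. That share is not matched for UMIs, on which the width of an interval depends. Tyr had 124 CPM in aged CNV and 217 CPM in aged control, 1.75-fold lower (1.52 to 2.02), with a UMI in 38.8% and 60.1% of cells and, after thinning, in 11.0% (7.54 to 15.3) and 18.4% (16.0 to 20.9), against 0.442% and 0.966% of endothelial-like cells before thinning. Mitf had 136 CPM in aged CNV and 183 CPM in aged control, 1.35-fold lower (1.18 to 1.55), and Dct 441 and 573 CPM, 1.30-fold lower (1.20 to 1.40). Gpr143 was 1.27-fold lower (1.03 to 1.58), Oca2 1.16-fold lower (1.02 to 1.32) and Slc45a2 1.86-fold lower (1.01 to 3.77). After thinning the directions of Gpr143 (log2 ratio 0.35) and Oca2 (0.02) turned. Mlana was the gene with an interval above equality, at 17.6 CPM in aged CNV and 10.2 CPM in aged control, 1.73-fold higher (1.10 to 2.66), on 33 and 65 UMIs. Tyrp1 and Pmel had intervals that spanned equality.

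Melanocyte-like cells of young eyes differed little with laser in these genes. Among 179 young CNV and 137 young control cells, 0 of the 9 genes were at least 2-fold higher, where 5.42% of 9212 genes were, and 0 were at least 2-fold lower, where 3.61% were. The largest difference was that of Mlana, with 5257 CPM in young CNV and 6845 CPM in young control, 1.30-fold lower (1.25 to 1.35). Tyrp1 had 7531 and 8377 CPM, 1.11-fold lower (1.08 to 1.15), Slc45a2 955 and 854 CPM, 1.12-fold higher (1.01 to 1.24), Dct 15425 and 14748 CPM, 1.05-fold higher (1.02 to 1.07), and Pmel 11724 and 11260 CPM, 1.04-fold higher (1.01 to 1.07). After thinning the direction of Tyrp1 turned, with a log2 ratio of 0.17. The intervals of Tyr, Oca2, Gpr143 and Mitf spanned equality, the widest being that of Gpr143 at 0.873 to 1.26. RPE markers summed to 1089 CPM in young CNV and 208 CPM in young control melanocyte-like cells, and to 164 and 208 CPM without 1 young CNV cell that held 54 UMIs of Rpe65; the median log2 ratio of the 9 genes was 0.07 without that cell and 0.06 with it.

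The melanocyte-like class held a deeper and a shallower cluster, of 158 cells with a median of 9362.5 UMIs and 198 cells with a median of 1248 UMIs. They differed in some of the genes more than in others. In young control Oca2 and Tyr made up 3.20% and 3.56% of the UMIs of the 9 genes in the deeper cluster and 0.662% and 1.19% in the shallower one, while Mlana made up 13.9% and 19.6%. Since depth goes with cluster, melanocyte state and cell quality cannot be told apart here: mitochondrial genes held 4.07% of UMIs in the deeper and 7.64% in the shallower cluster of young control.

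Age in melanocyte-like cells could be compared only with laser, in 28 aged CNV and 179 young CNV cells. Of the 9 genes, 3 were at least 2-fold lower in aged CNV, where 15.8% of 8155 genes were, and 0 were at least 2-fold higher, where 14.3% were. Oca2 had 439 CPM in aged CNV and 1357 CPM in young CNV, 3.09-fold lower (2.33 to 4.18), Gpr143 had 96.6 and 268 CPM, 2.77-fold lower (1.53 to 5.61) on 11 UMIs in aged CNV, and Tyrp1 had 3144 and 7531 CPM, 2.40-fold lower (2.16 to 2.67). Dct, Pmel and Mlana were 1.93-fold, 1.78-fold and 1.69-fold lower in aged CNV, and the intervals of Tyr, Slc45a2 and Mitf spanned equality. Few of the 28 cells carried the aged CNV levels, which the intervals do not cover. The 5% of cells with the most of a gene, rounded up to whole cells, held 41.7% (Tyr) to 72.7% (Gpr143) of its UMIs. For Tyrp1 this share was 57.3%. In young CNV the shares ran from 19.5% (Dct) to 41.0% (Oca2). With TMM scaling 6 of the 9 genes were at least 2-fold lower, Dct (log2 ratio -1.34), Pmel (-1.23) and Mlana (-1.15) among them. With median-of-ratios scaling 5 were. These scalings moved the median log2 ratio of all genes by -0.40 and -0.21, and the share of all genes at 2-fold was not counted with them. RPE markers summed to 9854 CPM in these 28 cells: 2 of them, with 18.7% of the UMIs of the class, held 80 UMIs of Rpe65 and 0 of Pmel. Without cells that meet the RPE rule on their own UMIs the RPE markers summed to 119 CPM. The log2 ratios were then -1.34 for Oca2, -1.18 for Gpr143, -0.98 for Tyrp1 and -0.54 for Pmel. Thus 2 of the 9 genes remained beyond 2-fold, and the share of all genes was not counted in that setting. The 12 aged control cells gave 13134 CPM of Dct, 4457 of Pmel, 3356 of Tyrp1, 2569 of Mlana, 1940 of Mitf, 1756 of Tyr, 629 of Slc45a2, 446 of Oca2 and 288 of Gpr143, as values only.

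The other genes of the pathway were read from 4 lists. Of 14 genes of melanosome structure, transport and channels, 10 had at least 20 UMIs in the RPE-like age comparison without laser, 3 of them at least 2-fold higher, where 11.3% of all genes were, and 2 at least 2-fold lower in aged control, where 3.21% were, with a median log2 ratio of -0.13 against 0.30 for all genes. Atp7a, the copper transporter that supplies tyrosinase, had 74.6 CPM in aged control and 35.7 in young control, and Met, the receptor of hepatocyte growth factor, 720 and 342 CPM. Slc24a4, an exchanger of the family of Slc24a5, had 4.55 CPM in aged control and 0 UMIs in young control, where the limit of 3 counts set for a count of 0 is 0.744 CPM. Trpm1, a channel first found in melanocytes, was 2.29-fold lower, with 35.0 CPM in aged control and 80.4 CPM in young control. The other lower gene, Atp7b, a copper transporter named here after its values were seen, had 2.67 CPM in aged control and 6.45 CPM in young control. Of 25 measured genes of melanosome biogenesis 3 were at least 2-fold higher, where 11.3% of all genes were, and 2 lower, where 3.21% were. The number higher is near the share of all genes, and the median log2 ratio was 0.30, the same as all genes. The motor genes Myo7a (44.6 and 20.3 CPM in aged control and young control) and Myo5a (52.9 and 25.5 CPM) were higher. Bloc1s1, a subunit of the BLOC-1 complex, was 2.68-fold lower (129 and 347 CPM). Hps5 (20.1 and 9.67 CPM) and Mlph (2.20 and 5.95 CPM), the other called genes, were also named after their values were seen.

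Of 11 measured relatives and regulators of Mitf, 2 were at least 2-fold higher and 1 at least 2-fold lower in aged control RPE-like cells, where 11.3% and 3.21% of all genes were. Zeb2, a zinc-finger transcription factor needed in melanocytes, had 104 CPM in aged control and 49.6 CPM in young control, and Pax6, an eye-field factor that works with Mitf in the RPE, had 0.942 and 8.43 CPM. The other higher gene was Kitl, the ligand of Kit, named after its values were seen, with 2.98 CPM in aged control and 0.992 CPM in young control on 19 and 4 UMIs and an interval that spans equality; Sox5, below 2-fold, had 81.0 and 50.8 CPM. Of 14 measured genes of the visual cycle and transport 0 were at least 2-fold higher and 1 lower, where 11.3% and 3.21% of all genes were. The lower one was Rrh, the peropsin of the RPE, with 174 CPM in aged control and 420 CPM in young control. Rdh10, a retinol dehydrogenase, was 1.86-fold higher at 3328 CPM in aged control and 1789.9 CPM in young control. In the laser comparison of aged eyes, 12 of these 14 had intervals below equality, where 13.4% of all genes did, and 0 reached 2-fold. That share is not matched for UMIs, with which an interval narrows. Rgr held 17017 UMIs in aged CNV and 89609 in aged control, while all genes with at least 20 were counted. Among the 12 were Lrat, which esterifies retinol (943 CPM in aged CNV and 1611 CPM in aged control), and Rgr, an opsin of the RPE (9080.4 and 14072 CPM). Gpnmb was 3.47-fold higher there, with 409 CPM in aged CNV and 118 CPM in aged control; it is also a macrophage gene. The 8 macrophage/monocyte markers summed to 276 CPM in aged CNV and 251 CPM in aged control RPE-like cells, with C1qa at 58.7 and 22.8 CPM, Cd68 at 15.5 and 4.87, Lyz2 at 105 and 102 and Csf1r at 90.2 and 117 CPM, and their part in the level of Gpnmb was not tested.

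Across the 53 sums of a class in a library with at least 50 cells, the genes most like the mean of the 9 were Gm3776 (Pearson r 0.95), Bfsp2 (0.93), Gm10639 (0.91), Tspan10 (0.91), Gsta1 (0.91), Kcnj13 (0.86), Gm10067 (0.85) and Cort (0.85). These r describe 2 melanocyte-like and 4 RPE-like sums set against the others that share libraries, so they mostly measure the contrast between pigmented and other classes. Among pairs of the 9, Oca2 and Gpr143 had 0.98, Tyr and Oca2 0.98, Tyrp1 and Mlana 0.99 and Pmel and Mlana 0.98, while Pmel and Gpr143 had 0.80, and Mitf had 0.48 to 0.57 with each of the other 8.

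All 9 genes were counted from mm10 annotation, and in GENCODE vM21 their spans lie on chromosomes 7 (Tyr, minus strand, 87424771 to 87493512), 4 (Tyrp1, plus, 80834123 to 80851719), 14 (Dct, minus, 118012790 to 118052244), 10 (Pmel, plus, 128704195 to 128720238), 19 (Mlana, plus, 29697824 to 29708634), 15 (Slc45a2, plus, 11000721 to 11029233), 7 (Oca2, plus, 56239760 to 56536518), X (Gpr143, plus, 152781921 to 152808646) and 6 (Mitf, plus, 97807052 to 98021349). UMIs of these genes stand for exons and, where introns were counted, introns, which the sources used here do not state. Pmel has 34 exonic bases inside the span of Cdk2 and 105 inside that of Dgka, both on the opposite strand, and 4930435M08Rik lies opposite Dct outside its exons.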

How the data were processed

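Per the labels, cells of 4 suspensions (retina and choroid-sclera) were run on the 10x Genomics platform; the submitters' processing notes name Cell Ranger, Seurat 4.1.1 and mm10, with no role given, and the sources do not say whether introns were counted. The deposited table holds raw UMI counts of 24783 genes in 36701 cells, each cell with at least 500 UMIs and 201 genes, in whole numbers with no normalization; library totals run from 50848238 to 111908519 UMIs. Cell columns were mapped to groups by their prefix, in which e was read as aged.

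From these counts, doublets were scored with Scrublet in scanpy 1.11.5 within each library (removing 272 cells of aged CNV, 246 of aged control, 290 of young CNV and 303 of young control at a score of 0.2, since the automatic threshold called 0 cells in young control). Cells were clustered on 2000 variable genes and 40 principal components (20 neighbours, Leiden resolution 1), with the 9 genes left out; leukocyte and pigmented groups were clustered again. A cluster was named when at least 3 markers were raised; the 9 genes were left out of markers and of leading genes, a choice made for leading genes after 1 shallow melanocyte-like cluster had been seen to be led by them. Of 70 clusters 18 stayed unnamed. For each class, UMIs of a library's cells were added up and expressed as CPM of that sum, with exact Poisson intervals for levels, exact conditional binomial intervals for ratios and Clopper-Pearson intervals for shares, all at 95%. A gene was compared at 20 or more UMIs over both libraries and at least 50 cells per class and library (20 for melanocyte-like cells; no minimum where melanocyte-like and RPE-like cells of 1 library were compared), and called at 2-fold. Likeness used log2(CPM + 5) and genes that reached 50 CPM. With 1 library per group no p-value was computed. The ratio and interval code was tested on simulated data, and TMM and median-of-ratios factors came from edgeR 4.0.16.

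The 9 genes and the lists were chosen with earlier results of these data known. Named genes are the 9, up to 4 genes per list and class by the interval bound nearest to equality, of which some are printed, and the 8 genes most like the 9; markers and pathway genes outside this rule are printed as checks of the classes.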

Additional observations from a re-analysis of the deposited data

Results flagged for a closer look

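In RPE-like cells Dct and Gpr143 differed with laser in opposite directions in aged and young mice, each with an interval that excludes equality in both comparisons. Dct had a log2 ratio of CNV over control of -0.38 in aged and 0.37 in young mice, and Gpr143 of -0.34 in aged and 0.27 in young mice. With 1 library per group, the difference between the ages was not tested, and different clusters held most RPE-like cells of each library. The ratio of Gpr143 in aged mice was 0.35 after thinning to 1000 UMIs per cell, so its direction depends on that setting, and -0.08 in aged and 0.11 in young mice among RPE-like cells without a UMI of Sox10, Kit, Mc1r, Pax3 and Mcoln3, while Dct was negative in aged and positive in young mice under all alternatives run.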

How the results depend on the processing

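No paired analysis was possible because each group was 1 library and no result comes from a test. Over all alternatives, 50 of 64 values that summarise a comparison and 354 of 462 values of single genes stayed within a counting interval of the main setting (counts of genes: within 1.5 times). For a median of the 9 genes this was the interval of the gene at the middle rank, and no interval of the median itself was computed. No call changed sign, and the cause of the other shifts was not tested. The median log2 ratio of the 9 genes in RPE-like cells was -0.07 for young CNV over young control and 0.22 after thinning to 1000 UMIs per cell. For aged control over young control it was -0.24, and -0.49 with TMM and -0.52 with median-of-ratios scaling, which moved the median of all genes by -0.25 and -0.28. In melanocyte-like cells the median for young CNV over young control was 0.06, and 0.15 after thinning, 0.11 without removal of doublets and -0.24 in the shallower cluster alone. For aged CNV over young CNV, on 28 aged cells, it was -0.83, and -1.31 after thinning, -0.54 without removal of doublets, -1.27 when clustering used the 9 genes, -1.30 at Leiden resolution 2, -0.54 without cells that meet the RPE rule, -1.23 with TMM and -1.04 with median-of-ratios scaling. The number of the 9 genes at least 2-fold higher in melanocyte-like than RPE-like cells of all 4 libraries was 8, and 5 with the shallower cluster alone. The share of all genes that were so in all 4 libraries was not counted in either setting. Settings on single melanocyte-like clusters, on cells with UMIs of other markers and on cells rich in Pmel were chosen after seeing the data. Comparisons of the 12 melanocyte-like cells of aged control with those of other libraries are not reported.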
